A study of Homo sapiens with 12 samples.

Results

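The S phase genes described here are 40 protein-coding genes whose products copy the DNA, supply its building blocks, guard the replication fork or pack the new DNA. They were taken by symbol from a list of S phase genes, each symbol was matched to 1 Ensembl identifier in the deposited gene tables, and all 40 were among the 16489 genes that could be tested out of 59248 listed rows. They fall into 6 roles: licensing and helicase (9 genes), polymerase, clamp and fork (8), nucleotide supply (3), repair and checkpoint (8), histone supply and chromatin (10), and E2F and cyclin (2). The study silenced RUNX2, a transcription factor of bone formation, in SJSA-1, an established human osteosarcoma line, and asked how the transcriptome changed. One group, shNC, carries a scramble shRNA and the other, sh1, carries RUNX2 shRNA-1. There are 6 RNA-seq libraries in each, and both groups were infected with the same kind of lentivirus, which also encodes EGFP, and selected with puromycin. Only 1 shRNA against RUNX2 is represented, in 1 cell line, and the study picked it as the most effective of those it designed, so an effect of RUNX2 and an effect of that hairpin cannot be told apart. The labels do not state that replicate libraries were grown or infected separately, so the p-values compare the groups only against the variation among these 12 libraries, which may be technical.

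DNA replication is prepared in G1 phase, when the origin recognition complex, CDC6 and CDT1 load rings of MCM proteins onto DNA. At the start of S phase CDC45 and the GINS proteins turn the ring into a moving helicase, polymerases extend the new strands on the sliding clamp PCNA, and histones and deoxynucleotides are made to match. Many of these genes are transcribed by E2F factors once the retinoblastoma protein RB1 lets go of them, so their mRNAs rise and fall together as cells enter and leave S phase.

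The promoters of these genes were searched for the letters of cell cycle and RUNX motifs. RefSeq promoter windows (GRCh38.p14, 250 bases before to 50 after a transcription start) were found for 31 of the 40 genes, and none was found for MCM4, MCM5, POLD3, DSCC1, RPA2, ATAD2, WDR76, E2F8 and CCNE2. An E2F motif, searched on both strands as TTTGGCGC, TTTCCCGC, TTTGCCGC or TTTCGCGC, lay in 15 of the 31 windows (48.4%). Among 11165 tested genes with a window, 1 per gene, 611 held it (5.47%), and among all 35116 windows it was found in 1164 (3.31%). The CCAAT box, searched as CCAAT, lay in 21 of the 31 windows (67.7%, against 37.0% of the tested genes). A RUNX motif, searched as TGTGGT, lay in 5 of them (16.1%, against 9.52%), and the cell cycle homology region, searched as TTTGAA, in 2 (6.45%, against 9.91%). These shares are a description of letters and not of bound sites, and no test was made on them.

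The 4 stretches below are shown because they precede the S phase genes with the smallest p-values in sh1 against shNC among those called lower that have a window, 1 gene per role. They are the 150 bases before the start, written 5′ to 3′ along the gene, with the letters of an E2F motif in capitals. CDC45 lies at chr22:19479316-19479465 (plus strand), PCNA at chr20:5126623-5126772 (minus strand), CLSPN at chr1:35769979-35770128 (minus strand) and CDCA7 at chr2:173354722-173354871 (plus strand). The CDC45 stretch holds no E2F motif by these letters, PCNA and CDCA7 hold 1 each, and the CLSPN motif crosses the start, so that only its first 5 bases are seen.
CDC45: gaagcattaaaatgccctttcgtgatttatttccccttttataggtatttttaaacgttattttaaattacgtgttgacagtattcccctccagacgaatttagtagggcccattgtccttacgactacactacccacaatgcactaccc
PCNA: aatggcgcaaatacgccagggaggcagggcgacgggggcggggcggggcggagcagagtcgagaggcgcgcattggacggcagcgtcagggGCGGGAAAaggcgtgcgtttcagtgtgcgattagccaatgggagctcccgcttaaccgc
CLSPN: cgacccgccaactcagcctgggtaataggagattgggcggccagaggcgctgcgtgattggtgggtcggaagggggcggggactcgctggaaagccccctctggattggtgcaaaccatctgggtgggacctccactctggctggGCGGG
CDCA7: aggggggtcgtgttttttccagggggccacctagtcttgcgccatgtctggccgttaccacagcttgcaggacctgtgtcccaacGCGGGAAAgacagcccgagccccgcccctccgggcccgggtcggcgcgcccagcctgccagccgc

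The 4 further matches, in CLSPN, CDC6, POLA1 and GINS2, complete the 6 genes that were lower in sh1 and hold an E2F motif. These are 6 of 10 lower genes with a window (60%), beside 9 of 21 genes that were not called (42.9%). No test was made on this difference. Each is shown with 10 bases on either side, from chr1:35769966-35769993 (minus strand), chr17:40287876-40287903 (plus), chrX:24693771-24693798 (plus) and chr16:85688968-85688995 (minus). The motif begins 5 bases before the start in CLSPN, 7 bases after it in CDC6, 137 bases before it in POLA1 and 31 bases before it in GINS2. The start of the GINS2 window lies 1119 bases from the 5′ end of the gene in GENCODE 44, so that the GINS2 stretch falls inside the gene as annotated there, while the starts of the other 5 lie within 52 bases of that end. In PCNA and CDCA7, above, it begins 59 and 65 bases before the start.
CLSPN: ctctggctggGCGGGAAAgcaagaacag
CDC6: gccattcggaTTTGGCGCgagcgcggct
POLA1: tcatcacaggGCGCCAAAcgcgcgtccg
GINS2: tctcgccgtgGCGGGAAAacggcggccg

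The targeted gene was checked first. RUNX2 ran from 35.4 to 46.0 CPM (read counts scaled to a common library size with edgeR's TMM factors) in shNC, with a median of 37.6, and from 21.5 to 27.3 in sh1, with a median of 24.7. All 6 sh1 libraries lay below all 6 shNC libraries (log2 fold change of -0.69, SE 0.08, exact two-sided permutation p = 0.0022, the smallest that 924 assignments of 6 and 6 libraries can give). Total gene counts ran from 15328312 to 19992974 in shNC and from 11239638 to 16346022 in sh1, and sh1 replicate 3, the smallest library, also had the highest share of counts in rows without an Ensembl identifier (1.23%, against 0.468% to 0.576% in the others). The S phase genes had between 71 and 6370 counts in any library. Of the markers of the line, MDM2 was at 909 CPM in shNC and 1122 in sh1, and CDK4 at 137 and 133. Of the osteoblast markers, SPARC was abundant (1442 and 2279.7 CPM), and COL1A1 ran from 3.78 to 7.88 CPM in shNC and from 8.55 to 19.1 in sh1. For both, all sh1 libraries lay above all shNC libraries. SPP1 ran from 5.11 to 7.24 CPM in shNC and from 4.56 to 8.37 in sh1. COL1A2 lay between 0.479 and 0.881 CPM in all libraries. SP7, ALPL, BGLAP and IBSP were at or near 0 and were not tested. The 9 markers of blood, endothelium and epithelium summed to between 1.91 and 5.24 CPM in shNC and between 2.93 and 5.67 in sh1, of which CDH1 had no count in any library.

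The S phase genes that differed between the groups were lower in sh1, by modest amounts. They came from every role except nucleotide supply, which holds only 3 genes. Outside the 40, 4 of 9 other nucleotide supply genes were lower. By edgeR's quasi-likelihood test at an adjusted p under 0.05, 17 of the 40 were lower, none was higher and 23 did not pass. Of all tested genes, 13.3% were lower and 12.8% were higher, and among the 9540 genes within the CPM range of the S phase genes 17.01% were lower and 14.5% higher. The log2 fold changes, sh1 over shNC, ran from -0.49 to 0.16 with a median of -0.18, against a median of -0.003 for all tested genes, and 33 of the 40 were negative. In the 17 genes that passed, the level in sh1 was 71.2% to 88.5% of that in shNC, and no S phase gene reached a 2-fold difference. In 7 genes (MCM5, CDC6, CDC45, POLA1, POLD3, DSCC1 and E2F8) all sh1 libraries were below all shNC libraries, and in none were they all above. Of all tested genes, 6.08% were separated in the lower direction and 5.84% in the higher. At an unadjusted p under 0.05, 22 had a lower and 1, CASP8AP2, a higher level, and DESeq2 called 17 lower and 0 higher. These counts are given without the matching shares of all tested genes and are not read as an excess. In these bulk libraries, fewer cells in S phase and less of each mRNA per cell cannot be told apart.

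**Figure D1:**
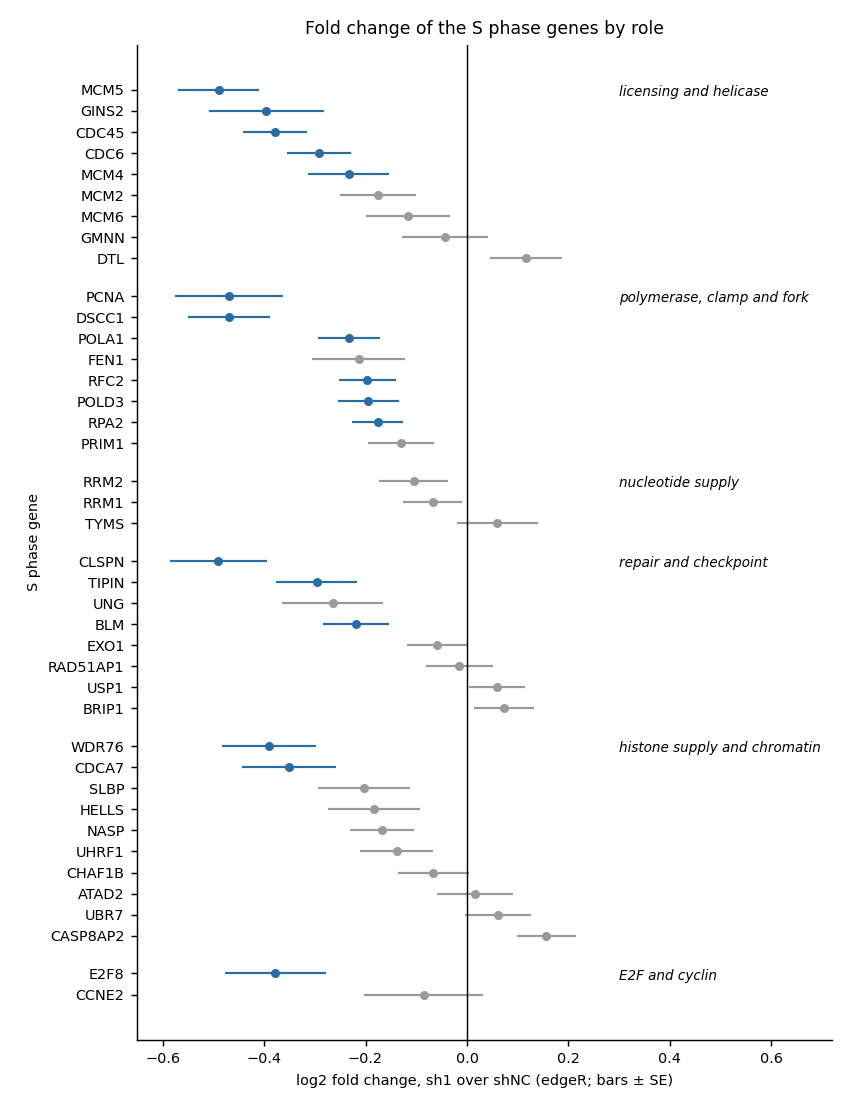
Log2 fold change of the 40 S phase genes, sh1 over shNC, grouped by role and ordered within each role, with bars of ± SE from edgeR (6 libraries per group). Blue marks genes called lower by the test and grey those that were not called; values run from -0.49 for CLSPN and MCM5 to 0.16 for CASP8AP2.

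Among licensing and helicase genes, those that fell included the ring loader CDC6, ring subunits and the helicase activators CDC45 and GINS2. Of the 9 genes, 5 were lower (55.6%, beside 17.01% of genes in the CPM range of the S phase genes) and none higher. The median log2 fold change was -0.23. MCM5 (chr22:35400134-35425431), a subunit of the MCM ring, ran from 81.5 through a median of 100.03 to 114 CPM in shNC and from 63.9 through 68.0 to 77.0 in sh1, without overlap (log2 fold change of -0.49, SE 0.08, edgeR adjusted p = 0.00022). CDC45 (chr22:19479457-19520612), which joins MCM and GINS in the active helicase, ran from 34.1 through 36.6 to 40.3 CPM in shNC and from 26.5 through 28.1 to 30.8 in sh1, again without overlap (-0.38, SE 0.06, adjusted p = 0.00025). Of all S phase genes, these 2 had the smallest adjusted p-values. CDC6 (chr17:40287879-40304657), the loader of the ring, ran from 102 through 113 to 135 CPM in shNC and from 87.1 through 93.6 to 98.7 in sh1 (-0.29, SE 0.06, adjusted p = 0.0023), and its groups did not overlap either. GINS2 (chr16:85676198-85690073), a subunit of the GINS complex, ran from 20.3 through 27.2 to 33.3 CPM in shNC and from 17.9 through 19.9 to 22.7 in sh1 (-0.40, SE 0.11, adjusted p = 0.015). The GINS2 groups overlapped, with 4 sh1 libraries below the lowest shNC library.

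MCM4, another subunit of the ring and the most abundant licensing gene per length (41.8 ± 5.69 FPKM in shNC and 36.1 ± 1.93 in sh1, SD, n = 6), differed less. It ran from 243 through 296 to 366 CPM in shNC and from 236 through 244 to 272 in sh1, with overlap (-0.23, SE 0.08, adjusted p = 0.0397). This call was lost in 9 of the 12 fits that left out 1 library (shNC replicates 1, 2, 5 or 6, or sh1 replicates 2, 3, 4, 5 or 6, adjusted p = 0.0571 to 0.0921). The ring subunits MCM2 (-0.18, adjusted p = 0.095) and MCM6 (-0.12, adjusted p = 0.32) did not pass. MCM2, MCM4, MCM5 and MCM6, subunits of one complex, thus had fold changes from -0.12 to -0.49. The 2 genes that restrain re-licensing within a cycle did not pass: geminin, GMNN, which binds CDT1, had a fold change of -0.04 (SE 0.09), and DTL, an adaptor of the ubiquitin ligase that removes CDT1, had 0.12 (SE 0.07). MCM2 passed without sh1 replicate 1 (-0.22, adjusted p = 0.0228).

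Polymerase, clamp and fork genes that fell ranged from the sliding clamp and its loaders to the initiating polymerase. Of the 8 genes, 6 were lower (75%, beside 17.01% of genes in the CPM range of the S phase genes). All 8 had a negative log2 fold change, with a median of -0.20 and a range from -0.13 to -0.47. PCNA (chr20:5114953-5126626), the sliding clamp and the S phase gene with the highest FPKM (110.3 ± 22.3 in shNC and 80.8 ± 3.06 in sh1), ran from 113 through 167 to 217 CPM in shNC and from 114 through 117 to 125 in sh1 (-0.47, SE 0.11, adjusted p = 0.0033). Its sh1 libraries formed a narrow band, and shNC replicate 4, at 113 CPM, lay just below that band while the other 5 shNC libraries lay above it. DSCC1 (chr8:119833976-119855894), part of an alternative clamp loader that serves sister chromatid cohesion, ran from 27.9 through 33.9 to 40.6 CPM in shNC and from 23.0 through 24.2 to 25.2 in sh1, without overlap (-0.47, SE 0.08, adjusted p = 0.00033). POLA1 (chrX:24693873-24996986), the catalytic subunit of the polymerase that starts each strand, ran from 68.2 through 72.8 to 87.7 CPM in shNC and from 58.1 through 65.1 to 67.5 in sh1, without overlap (-0.23, SE 0.06, adjusted p = 0.0093).

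The remaining fork genes moved less. POLD3 (chr11:74493851-74669117), an accessory subunit of DNA polymerase delta, ran from 33.3 through 35.0 to 39.5 CPM in shNC and from 29.1 through 31.0 to 32.8 in sh1, without overlap (-0.19, SE 0.06, adjusted p = 0.023). RFC2 (chr7:74231499-74254458), a subunit of the clamp loader, ran from 53.4 through 57.0 to 62.9 CPM in shNC and from 45.6 through 50.4 to 53.5 in sh1 (-0.20, SE 0.06, adjusted p = 0.015), and 5 of its 6 sh1 libraries lay below all shNC libraries. RPA2 (chr1:27891524-27914746), which coats single-stranded DNA, ran from 77.0 through 82.3 to 85.8 CPM in shNC and from 66.1 through 72.7 to 77.9 in sh1 (-0.18, SE 0.05, adjusted p = 0.015), also with 5 of 6 sh1 libraries below all of shNC. POLD3 did not pass without shNC replicate 1 or sh1 replicates 2, 5 or 6 (adjusted p = 0.0542 to 0.0744), and RPA2 did not pass without shNC replicate 5 or sh1 replicates 5 or 6 (adjusted p = 0.0541 to 0.0558). PRIM1, the primase subunit, had a fold change of -0.13 (adjusted p = 0.15) and FEN1, the flap endonuclease of Okazaki fragments, -0.21 (adjusted p = 0.093). FEN1 passed without shNC replicate 3 or shNC replicate 4 (-0.26 in both, adjusted p = 0.0278 and 0.023).

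**Figure D2:**
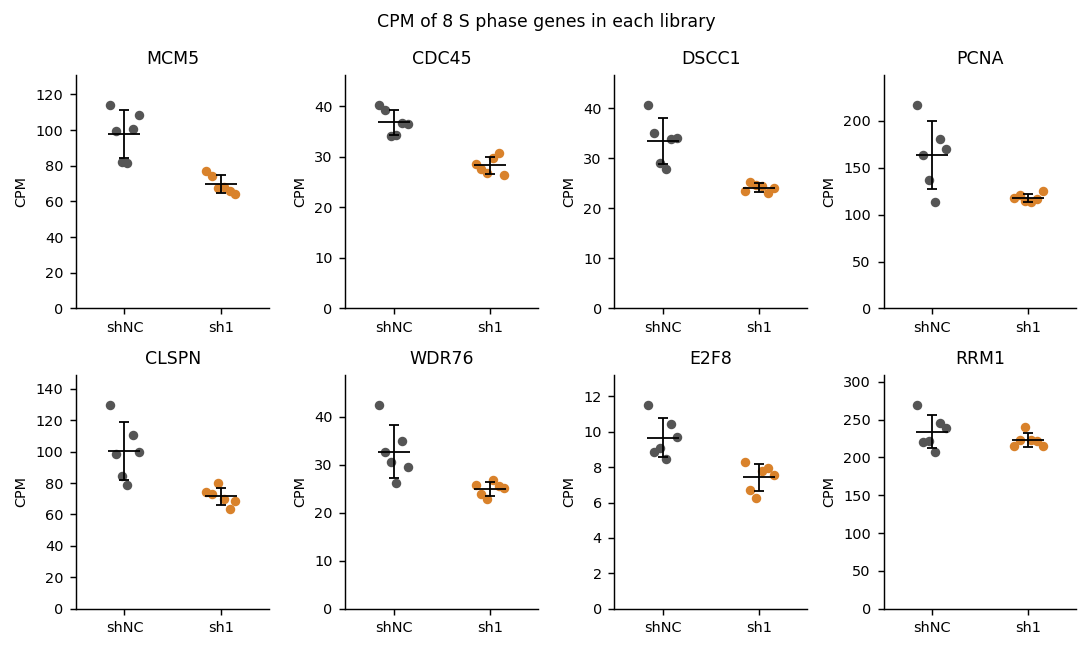
CPM of 8 S phase genes in each library, with a separate axis from 0 for each gene. Points are the 6 shNC (grey) and 6 sh1 (orange) libraries in replicate order and bars are the mean and SD; MCM5, CDC45, DSCC1 and E2F8 show no overlap between groups, PCNA, CLSPN and WDR76 overlap through the lowest shNC library or libraries, and RRM1 overlaps throughout.

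Nucleotide supply genes did not pass the test. Of the 3 genes, 0 were called by edgeR, 0 by DESeq2 and 0 at an unadjusted p under 0.05, and the median log2 fold change was -0.07. RRM1 (chr11:4094707-4138932), the large subunit of ribonucleotide reductase and the most abundant of the 3 per length (55.6 ± 4.23 FPKM in shNC and 53.7 ± 2.24 in sh1), ran from 208 through 231 to 269 CPM in shNC and from 215 through 223 to 239.8 in sh1. All of its sh1 values lay inside the shNC range (-0.07, SE 0.06, adjusted p = 0.42). RRM2, the small subunit, had a fold change of -0.11 (SE 0.07, adjusted p = 0.28) and TYMS, thymidylate synthase, 0.06 (SE 0.08, adjusted p = 0.62).

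Repair and checkpoint genes that fell were a fork checkpoint adaptor, a fork protection factor and a helicase. Of the 8 genes, 3 were lower (37.5%, beside 17.01% of genes in the CPM range of the S phase genes) and none higher. The median log2 fold change was -0.14. CLSPN (chr1:35720218-35769978), the adaptor that passes the stalled fork signal to CHK1, ran from 78.8 through 99.2 to 129 CPM in shNC and from 63.6 through 71.1 to 80.2 in sh1, with 5 of 6 sh1 libraries below all of shNC (-0.49, SE 0.10, adjusted p = 0.0010). TIPIN (chr15:66336191-66386746), the partner of TIMELESS in fork protection, ran from 21.5 through 24.6 to 27.7 CPM in shNC and from 18.7 through 19.5 to 23.6 in sh1 (-0.30, SE 0.08, adjusted p = 0.010). BLM (chr15:90717346-90816166), a helicase that unwinds recombination intermediates, ran from 43.8 through 48.1 to 58.0 CPM in shNC and from 40.4 through 41.8 to 45.1 in sh1 (-0.22, SE 0.06, adjusted p = 0.0185), and missed the threshold without sh1 replicate 2 (adjusted p = 0.0504). In both, 5 of 6 sh1 libraries lay below all of shNC.

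The other 5 repair genes did not pass. USP1, a deubiquitinase of PCNA and FANCD2 and the most abundant of the role per length (38.6 ± 2.32 FPKM in shNC and 40.7 ± 2.53 in sh1), ran from 151 through 167 to 181 CPM in shNC and from 153 through 174 to 187 in sh1 (0.06, SE 0.06, adjusted p = 0.47). BRIP1, a helicase of the Fanconi pathway, had 0.07, the nuclease EXO1 -0.06 and the recombination factor RAD51AP1 -0.02, each within 2 standard errors of 0. UNG, which removes uracil from DNA, had the largest fold change of the S phase genes that did not pass (-0.26, SE 0.10, adjusted p = 0.058). UNG passed without shNC replicate 3 or shNC replicate 4 (adjusted p = 0.0281 and 0.0142).

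Histone supply and chromatin genes were mostly not called. Of the 10 genes, 2 were lower and none higher, with a median log2 fold change of -0.15. The lower share, 20%, is near the 17.01% of genes in the CPM range of the S phase genes. CDCA7 (chr2:173354820-173368997), which brings the remodeller HELLS to chromatin, ran from 30.8 through 35.0 to 47.4 CPM in shNC and from 25.7 through 27.9 to 31.5 in sh1 (-0.35, SE 0.09, adjusted p = 0.0090). WDR76 (chr15:43826980-43868412), a WD-repeat protein, ran from 26.3 through 31.6 to 42.4 CPM in shNC and from 22.8 through 25.3 to 26.8 in sh1 (-0.39, SE 0.09, adjusted p = 0.0047). Both overlapped through 1 sh1 library. SLBP, which binds the stem-loop of histone mRNAs and was the most abundant of the role per length (38.8 ± 6.12 FPKM in shNC and 34.1 ± 1.77 in sh1), ran from 58.4 through 81.8 to 97.4 CPM in shNC and from 64.2 through 69.2 to 73.7 in sh1 (-0.20, SE 0.09, adjusted p = 0.11). Its sh1 values all lay inside the shNC range.

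The other 7 chromatin genes did not pass. HELLS had a fold change of -0.18, the histone chaperone NASP -0.17, UHRF1, which reads hemimethylated DNA, -0.14, and CHAF1B, a subunit of the chromatin assembly factor, -0.07. ATAD2 had 0.02 and UBR7 0.06. CASP8AP2, a factor of histone mRNA processing, had the highest fold change of all 40 (0.16, SE 0.06, adjusted p = 0.055), with 4 of 6 sh1 libraries above all of shNC, and it passed in 12 of the 28 alternative analyses, among them those without shNC replicate 1, shNC replicate 3, sh1 replicate 1 or sh1 replicate 2 (adjusted p = 0.0259 to 0.0421). NASP and SLBP passed as lower without shNC replicate 4 (adjusted p = 0.0226 and 0.00935), and UHRF1 without sh1 replicate 1 (adjusted p = 0.045).

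E2F8 (chr11:19224063-19241620), an E2F that represses the targets of the activating E2Fs, was the S phase gene with the lowest FPKM (2.32 ± 0.226 in shNC and 1.80 ± 0.187 in sh1). It ran from 8.46 through 9.40 to 11.5 CPM in shNC and from 6.26 through 7.65 to 8.28 in sh1, without overlap (-0.38, SE 0.10, adjusted p = 0.0091). CCNE2 (chr8:94879770-94896678), cyclin E2, which starts S phase with CDK2, was at 3.10 ± 0.608 FPKM in shNC and 2.97 ± 0.201 in sh1. It ran from 9.55 through 13.2 to 18.3 CPM in shNC, a range of 0.94 on the log2 scale that only PCNA reached among the 40, and from 11.4 through 13.1 to 14.1 in sh1 (-0.09, SE 0.12, adjusted p = 0.63).

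The shNC libraries differed among themselves in these genes more than the sh1 libraries did, and they did so together. shNC replicate 1 was the highest shNC library in 36 of the 40 genes and shNC replicate 4 the lowest in 28, and replicate 1 lay above replicate 4 in all 40, by a median of 0.42 on the log2 scale (0.03 in RPA2 to 0.94 in PCNA). Among the genes of the same CPM range, replicate 1 was the highest in 25.1% and replicate 4 the lowest in 22.9%. Averaged over the 40 genes, log2 CPM relative to the shNC mean ran from -0.20 in shNC replicate 4 to 0.25 in shNC replicate 1 (SD 0.16, n = 6), and from -0.21 to -0.14 in sh1 (SD 0.028, n = 6). The sh1 average of all 40 genes therefore lay near the level of the single library shNC replicate 4, and the groups overlapped. The SD of log2 CPM within shNC had a median of 0.15 over the S phase genes and of 0.12 over genes of their CPM range, and within sh1 of 0.092 and 0.11. The SD was higher in sh1 than in shNC in 6 of the 40 genes, and in 13 of the 40 when CPM were scaled by library totals alone. Among the 9540 genes of the same CPM range, it was higher in sh1 in 4577, and in 4499 on library totals. On library totals, shNC replicate 1 was still the highest shNC library in 31 genes and replicate 4 the lowest in 25.

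**Figure D3:**
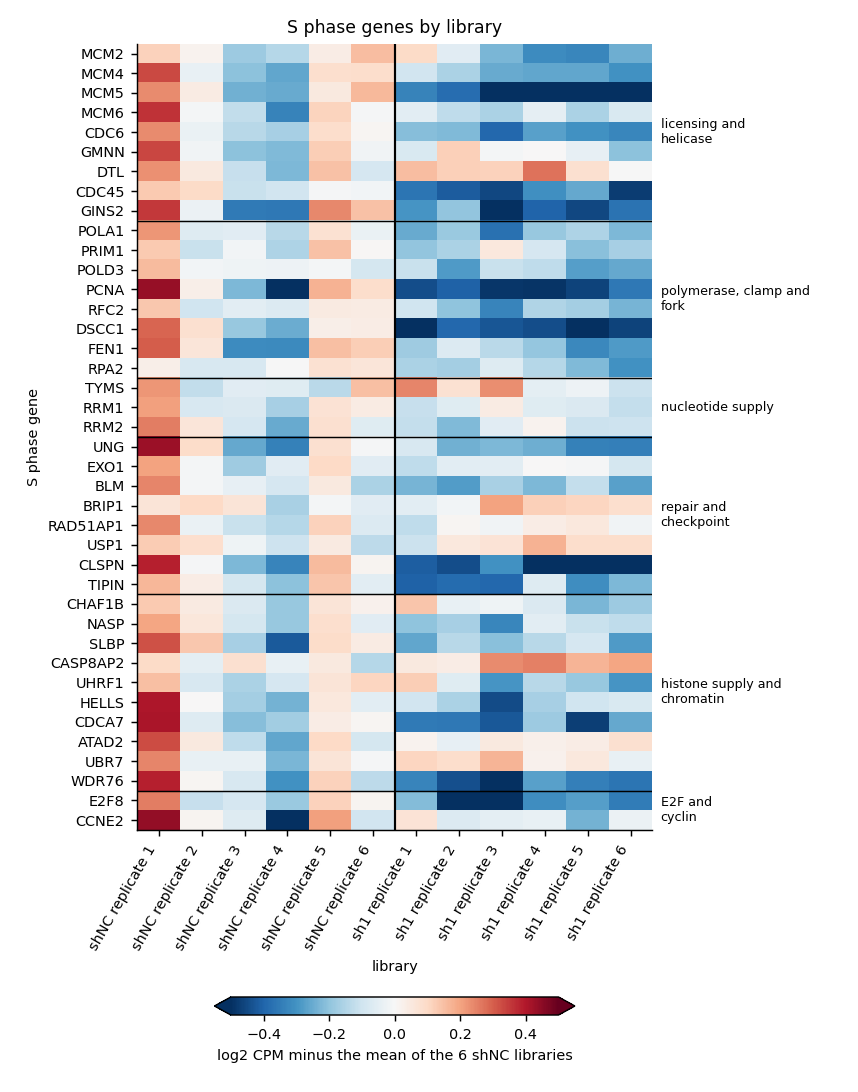
Log2 CPM of each S phase gene in each library minus its mean over the 6 shNC libraries, with genes in rows by role and libraries in columns (colours are capped at ±0.5). The column of shNC replicate 1 is the reddest and that of shNC replicate 4 the bluest of shNC, and the sh1 columns are blue for MCM5, CDC45, PCNA, DSCC1, CLSPN and WDR76.

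The sh1 levels were also set beside shNC replicate 4 alone. The mean sh1 level was below shNC replicate 4 in 15 of the 17 genes that were lower, with a median difference of -0.13 on the log2 scale, and in 2 of the 23 that did not pass, with a median of 0.13. These values use the same libraries as the calls and are given as a description. By role, the mean of the polymerase, clamp and fork genes lay between -0.29 and -0.23 in sh1 and at -0.18 or above in shNC, without overlap, and so it did on library totals (-0.28 to -0.21 in sh1, -0.16 or above in shNC). The means of the other 5 roles overlapped between groups; for licensing and helicase, for example, sh1 ran from -0.29 to -0.13 and shNC from -0.23 to 0.26. The G2 and M phase genes followed the same order within shNC, with replicate 1 the highest in 18 of 20 and replicate 4 the lowest in 13 of 20. Without shNC replicates 1 and 4, 18 S phase genes were lower and none higher, 16 of them among the 17, and the median log2 fold change was -0.17. Without shNC replicate 1 alone, 15 were lower, and without shNC replicate 4 alone, 21 were.

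**Figure D4:**
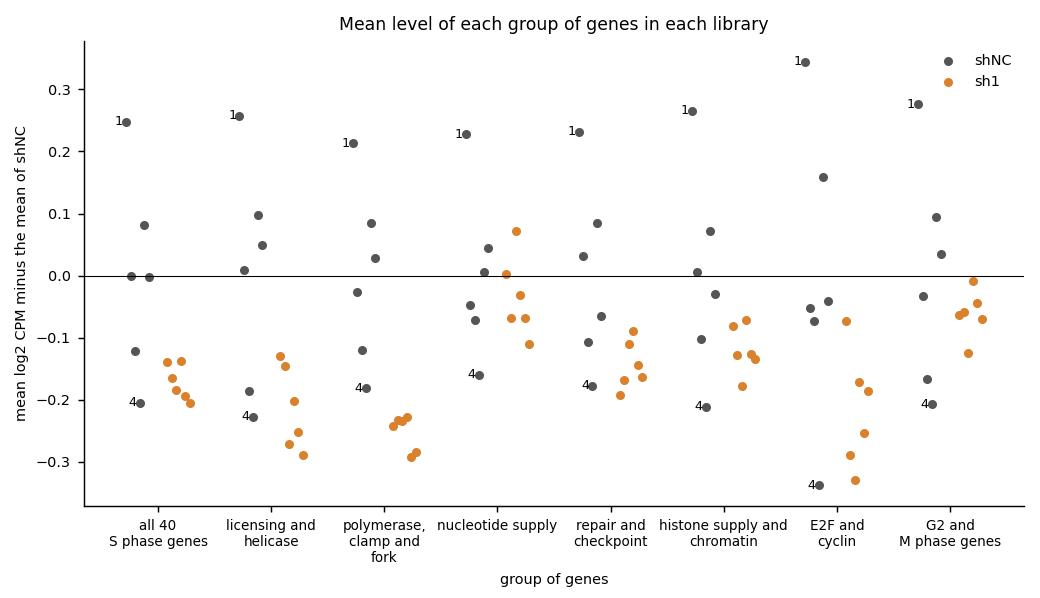
Mean log2 CPM of each group of genes in each library, minus the mean of shNC, for all 40 S phase genes, their 6 roles and 20 G2 and M phase genes. Grey points are shNC (replicates 1 and 4 are numbered) and orange points sh1; shNC spreads widely with replicate 1 at the top and replicate 4 at the bottom, sh1 is narrow, and only for the polymerase, clamp and fork genes do the groups not overlap.

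Other replication genes were lower most often, by share, in the licensing, nucleotide and repair roles. Of 98 such genes, 97 were tested, 25 were lower (25.8%) and 8 higher (8.25%), with a median log2 fold change of -0.08, beside 13.3% lower and 12.8% higher of all tested genes and 17.01% and 14.5% of genes in the CPM range of the S phase genes. Among licensing and helicase genes, 9 of 22 were lower and none higher. These included the GINS subunits GINS4 (-0.39, adjusted p = 0.0011) and GINS1 (-0.28, adjusted p = 0.010) and the origin recognition subunit ORC5 (-0.25, adjusted p = 0.0024). Not every subunit of these complexes fell. GINS3 ran from 17.4 to 20.2 CPM in shNC and from 17.3 to 21.4 in sh1. ORC2 ran from 73.3 to 77.9 CPM in shNC and from 68.1 to 85.2 in sh1. Among polymerase, clamp and fork genes, 5 of 22 were lower and none higher. That share, 22.7%, is not far above the 17.01% of genes in the CPM range of the S phase genes. The lower genes included RFC4 of the clamp loader (-0.27), RPA3 (-0.44) and TIMELESS, the partner of TIPIN (-0.21). In RFC3 and RPA1, of the same complexes as RFC4 and RPA3, all sh1 values lay inside the shNC range. Nucleotide supply genes outside the 40 were lower in 4 of 9, among them deoxycytidine kinase DCK (-0.37), thymidine kinase TK1 (-0.28) and the dUTPase DUT (-0.43), whereas the 3 listed above did not pass. Repair and checkpoint genes were lower in 5 of 15 and higher in 1: the recombination factors XRCC2 (-0.32) and BRCA1 (-0.25) were lower and WEE1, the kinase that holds back CDK1, was higher (0.34, adjusted p = 0.00062). In the licensing, polymerase and nucleotide roles, where edgeR called 0 genes higher, DESeq2 also called 0, and 1, 0 and 0 genes had a higher level at an unadjusted p under 0.05. The count of 25 lower genes fell to 16, 15, 16 and 15 without shNC replicate 1, shNC replicate 2, shNC replicate 5 or sh1 replicate 5, and the count of 8 higher genes to 5, 4 and 5 without shNC replicate 5, shNC replicate 6 or sh1 replicate 4.

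E2F and cyclin genes outside the 40 were more often higher than lower. This list also holds RB1, RBL1, RBL2 and the CDK inhibitors CDKN1A and CDKN1B. Of 19, 2 were lower (10.5%) and 6 higher (31.6%), with a median of 0.05. Among genes in the CPM range of the S phase genes, 17.01% were lower and 14.5% higher. RB1, which holds E2Fs in check, ran from 172 through 186 to 198 CPM in shNC and from 212 through 242 to 256 in sh1, without overlap (0.35, SE 0.06, adjusted p = 0.00018). The CDK inhibitor CDKN1B was also higher (0.27, SE 0.08, adjusted p = 0.021), though it lost the call in 3 of the 28 alternatives. These were edgeR without shNC replicate 6 (adjusted p = 0.0507), edgeR with a replicate block (adjusted p = 0.0598) and limma on log2(FPKM + 1) without a filter (adjusted p = 0.0726). E2F1, an activating E2F, ran from 28.7 through 35.4 to 38.4 CPM in shNC and from 23.4 through 25.6 to 29.3 in sh1 (-0.38, SE 0.08, adjusted p = 0.0023). RB1, CDKN1B and E2F1 were named for their small p-values and do not stand for the whole list. Of the 19, 8 had a negative and 11 a positive fold change. TFDP1, for example, ran from 193 to 269 CPM in shNC and from 253 to 270 in sh1. E2F2 ran from 5.68 to 8.44 CPM in shNC and from 3.88 to 6.34 in sh1. Histone supply and chromatin genes were lower in 0 of 10 by edgeR and DESeq2 (2 at an unadjusted p under 0.05) and higher in 1, LSM11 of the histone mRNA machinery (0.22, adjusted p = 0.044). LSM11 lost the call in 12 of the 28 alternatives, among them those without shNC replicates 1, 5 or 6 or sh1 replicates 2, 3 or 4. HAT1, a histone acetyltransferase (-0.14, adjusted p = 0.078), and ZNF473, a histone mRNA factor (0.25, adjusted p = 0.084), did not pass, but HAT1 passed without shNC replicate 4 and ZNF473 without shNC replicate 4 or sh1 replicate 6 (adjusted p = 0.0333, 0.0458 and 0.0394).

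Of 20 G2 and M phase genes, 3 were lower (15%) and 1 was higher (5%), with a median log2 fold change of -0.05. The lower share is close to the 13.3% of all tested genes and the higher share is below their 12.8%. TPX2, a spindle assembly factor, ran from 409 through 452 to 538 CPM in shNC and from 286 through 306 to 308 in sh1, without overlap (-0.60, SE 0.06, adjusted p = 2.0e-06). CDK1, the kinase that drives mitosis, ran from 176 through 210.1 to 246 CPM in shNC and from 136 through 154 to 161 in sh1, also without overlap (-0.47, SE 0.07, adjusted p = 0.00010). CENPF, a kinetochore protein, was higher (0.28, SE 0.07, adjusted p = 0.0056). Without shNC replicate 1, 4 of the 20 were higher, and without sh1 replicate 6, 2 were.

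**Figure D5:**
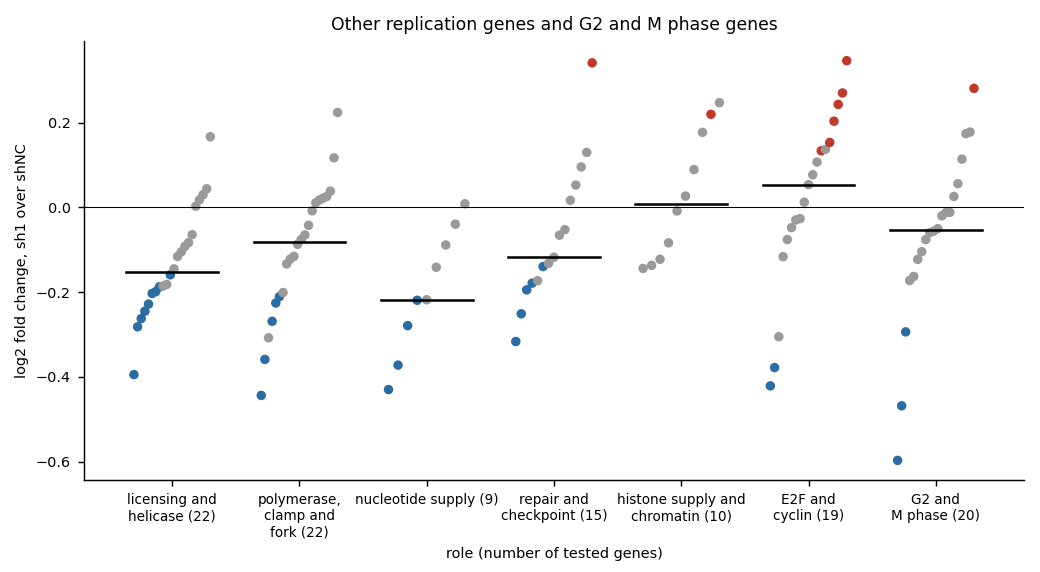
Log2 fold change, sh1 over shNC, of the other replication genes by role and of the G2 and M phase genes (number tested in brackets). Blue marks genes called lower, red genes called higher and grey the rest, and black lines give medians, from -0.22 for nucleotide supply to 0.05 for E2F and cyclin genes.

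Of the 40 S phase genes, 11 overlap another tested gene in GENCODE 44, 6 of them a gene on the opposite strand, and the library kit does not mark strand. Among the genes that were lower, GINS2 overlaps GSE1 on the opposite strand, which was higher (54.2 and 66.2 CPM, 0.29, adjusted p = 0.0030). POLA1 contains a pseudogene on the opposite strand (EEF1B2P3, -0.26, adjusted p = 0.13). POLD3 and DSCC1 each overlap a gene at about 1 CPM on the same strand. The genes that did not pass share this limit. TYMS, for example, overlaps ENOSF1 on the opposite strand (31.3 CPM in shNC and 33.1 in sh1). On the same strand, FEN1 overlaps FADS2 (109 and 128 CPM) and PRIM1 overlaps NACA (377 and 351 CPM).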

How the data were processed

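The analysis used gene counts, count-derived signal and FPKM of 12 SJSA-1 libraries, 6 shNC and 6 sh1, grouped by their labels. The authors enriched polyadenylated RNA, prepared libraries without strand information, aligned read pairs with HISAT2 to GRCh38 (the build in the submitters' processing notes) and deposited gene counts made with featureCounts. The authors also deposited a signal, the counts divided by a DESeq2 size factor per library, and FPKM values per gene length. Their versions are not given in the sources used. Of the 59248 rows, 572 lack an Ensembl identifier and stayed in library totals.

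The quasi-likelihood test of edgeR 4.0.16 (R 4.3.3; filterByExpr, TMM, glmQLFit, glmQLFTest) was run on the deposited counts over 16489 genes, with Benjamini-Hochberg adjustment over all of them and calls at an adjusted p under 0.05. The SE was derived from the log2 fold change and its F statistic, as their ratio after taking the root of F. Log2 CPM used a prior count of 2, and edgeR's common BCV (the relative spread between replicates) was 0.11. The smallest library, with 11239638 counts, gave at least 71 counts for every S phase gene. Intervals between groups cover the spread of these libraries only. Coordinates and overlaps are from GENCODE 44 (GRCh38). All 40 genes are named; full values were given for each called gene and for the gene with the highest mean FPKM of each role. Of other replication and G2 and M phase genes, up to 3 per role with the smallest p were named, and CASP8AP2 was singled out after its values were seen. The S phase genes and the other lists were chosen with earlier results of these data known.

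There were 28 alternatives in all. Those planned were RLE, upper quartile, library total and the authors' size factor scaling, 2 filters on counts, DESeq2 1.42.0, robust dispersion, limma 3.58.1 on log2(FPKM + 1), with and without a filter, and on log2(FPKM + 0.1), a replicate block and 12 fits without 1 library each. The other 4, added once the data had been seen, were GC content and length offsets (also with the block), dropping rows without an Ensembl identifier and dropping shNC replicates 1 and 4.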

Additional observations from a re-analysis of the deposited data

Results flagged for a closer look

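Each group of 6 libraries was checked for a library far from the others, by the gap to its nearest neighbour as a share of the group's range (Dixon's test). Of 84 such checks 4 stood out, and chance alone gives about 4.2. In shNC replicate 1, POLD3 was at 39.46 CPM, against 33.3 to 35.12 in the other shNC libraries, and CDCA7 was at 47.39 CPM, against 30.81 to 36.62. In sh1 replicate 3, the smallest library, RRM1 was at 239.8 CPM, against 214.8 to 223.5 in the other sh1 libraries, and HELLS was at 66.54 CPM, against 80.68 to 85.89. Without shNC replicate 1, POLD3 did not pass (log2 fold change of -0.16, edgeR adjusted p = 0.0542), and CDCA7 was called lower in every alternative.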

How the results depend on the processing

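Between 14 and 21 of the 40 S phase genes were called lower over the 28 alternatives, their median log2 fold change lay between -0.19 and -0.14, and RUNX2 was called lower in each. Of the 17 genes called lower, 12 were called in every alternative, and MCM4, POLD3, RPA2, GINS2 and BLM lost the call in 12, 7, 5, 1 and 1 of them. CASP8AP2 was the only S phase gene called higher, as 1 gene under RLE, upper quartile and library total scaling, with 10 counts in every library, in limma on log2(FPKM + 1) and log2(FPKM + 0.1), with GC content and length offsets with and without the replicate block, and in leave-one-out fits (0 to 1). Limma on log2(FPKM + 1) without a filter called 12 other replication genes lower, 4 higher and 1375 of all genes lower. Leaving out 1 library gave 15 to 27 lower and 4 to 10 higher other replication genes and 1 to 4 higher G2 and M phase genes. G2 and M phase genes called higher numbered 3 on library totals and 2 in limma on log2(FPKM + 1), on log2(FPKM + 0.1), without shNC replicates 1 and 4, and with GC content and length offsets and the replicate block. The replicate numbers did not pair the libraries (correlation of deviations from the group means between -0.16 and 0.033), and with the replicate block 15 S phase genes were lower and 0 higher, and 5 other replication genes were higher. The causes of these differences were not tested.

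Fold changes near 0 turned sign in 4 genes. GMNN was at 0.021 with GC content and length offsets, 0.025 with offsets and replicate block, and -0.074 to 0.030 in leave-one-out fits. RAD51AP1 was at 0.0023 on library totals, 0.0052 in limma on log2(FPKM + 1) with and without the filter, 0.0056 in limma on log2(FPKM + 0.1), 0.0125 without shNC replicates 1 and 4, 0.0404 with offsets, 0.0431 with offsets and replicate block, and -0.032 to 0.036 in leave-one-out fits. ATAD2 ranged from -0.022 to 0.087 in leave-one-out fits, and CCNE2 from -0.157 to 0.012.

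Each S phase gene had at least 71 counts in every library. Whether the libraries of a group are separate cultures is not given, which limits what the spread between them stands for.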
